A study of Mus musculus with 6 samples.

Results

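The genes described here encode 10 subunits of cytokine receptors, namely Il2rg, Il4ra, Il21r, Il6st, Il6ra, Il27ra, Il10ra, Ifngr1, Ifnar1 and Il17ra. They were found by gene symbol among the 46983 genes of the count tables. No measured value entered that rule, but the list was chosen with earlier results of these data known. RNA sequencing of total RNA depleted of ribosomal RNA was carried out on naïve CD4 T cells from lymph nodes of male mice, sorted as TCRb+ CD4+ CD62L+ CD44- and negative for the dead cell dye DAPI. The 3 control libraries came from Rnmt fl/fl mice without Cre, and the 3 Rnmt cKO (conditional knock-out) libraries from Rnmt fl/fl mice with a CD4-Cre transgene. Both groups carry loxP sites around exon 3 of Rnmt on a C57B6/J background. Cre is driven by Cd4 regulatory sequence and acts from the double positive stage in the thymus, so CD8 T cells of these animals lose Rnmt too, and carrying the transgene cannot be told apart from losing Rnmt. The ages of the mice are not given in the sources used here.

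Cytokine receptors are assembled from chains that are shared between several receptors and chains that bind a particular cytokine. Most lack an enzyme of their own and carry Janus kinases (JAKs), which phosphorylate STAT transcription factors when a cytokine brings the chains together. Naïve CD4 T cells rely on such receptors for survival, on those for interleukin 7 above all, and for the choice between helper cell fates once they are activated. RNMT is the methyltransferase that completes the guanosine cap at the start of messenger RNAs. The comparison asks how the transcripts of these receptor chains differ between resting T cells that have and lack RNMT.

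Sense counts assigned to genes ranged from 8873413 to 11277764 per library. Rnmt itself was covered by 438, 588 and 524 counts in controls 1 to 3 and by 397, 444 and 297 in Rnmt cKO 1 to 3, and fell by 0.67 on the log2 scale (adjusted p = 0.000350). Counts are summed over the whole gene, so reads outside exon 3 remain in this value. Between 31.8% and 47.9% of uniquely mapped reads fell in no gene. Controls 1 and 2 and Rnmt cKO 3 were under 40%, and control 3 and Rnmt cKO 1 and 2 were over 46%. Values within each of these sets are given below for the members that passed the threshold and for Il7r. Naïve CD4 T cell markers were high in all libraries, at 7510 to 7846 summed CPM (counts relative to the size of the library) in the controls and 8514 to 9224 in Rnmt cKO, with 4 of the 11 higher and 1 lower. The labels do not name an animal for each library, but each group is described as n = 3 mice.

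The cap that RNMT methylates sits on the first transcribed base. The bases around the annotated start are therefore shown for the 7 members with a RefSeq promoter entry (GRCm38.p6), 5′ to 3′, with the start base in capitals.
Il2rg (chrX:101268241-101268270, minus strand): ggaagctacgacaaaAggaaatgtatgggt
Il4ra (chr7:125552256-125552285, plus strand): ggcggcgtaggaagcGgggcgaggtccttc
Il21r (chr7:125603414-125603443, plus strand): cccttgcctggcctcAgatagacaccgaag
Il6st (chr13:112464055-112464084, plus strand): ctggctccggggggcGgggccgtggggggc
Il6ra (chr3:89913182-89913211, minus strand): gtgggaagtcgcgccCacaccgatctgagc
Ifngr1 (chr10:19591934-19591963, plus strand): tcccaggctggtctcTcaagctttggtttt
Ifnar1 (chr16:91485200-91485229, plus strand): ggcgggggcgttcacGgaaggggcggggcg
Il27ra, Il10ra and Il17ra had no entry. The start base was A in 2 genes, G in 3, C in 1 and T in 1. None of the 7 began with C followed by 4 pyrimidines, the start of terminal oligopyrimidine mRNAs. That pattern was found in 2.42% of the 10803 promoters of tested genes and in 13 of 67 ribosomal protein promoters. It thus missed most ribosomal protein genes, and cannot show that the 7 members lack such a start. The starts given here are annotated ones, which were not measured in these libraries. They depend on the annotation, as the GENCODE gene starts of Il4ra (125552120) and Ifnar1 (91485238) lie outside the windows shown. The longest coding transcript of Il21r in GENCODE began with G. Those of Il27ra, Il10ra and Il17ra in GENCODE began with C, A and A.

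All 10 members passed the filter of more than 1 CPM in at least 3 libraries that left 12336 genes. In Rnmt cKO, 4 members rose (Il17ra, Il10ra, Il21r and Il2rg), 1 fell (Il4ra), and 5 did not pass the adjusted threshold of 0.05 in edgeR's exact test. Of all tested genes 14.8% passed it, 8.0% as higher and 6.84% as lower. The groups did not overlap for 6 members, 5 higher and 1 lower, where 31.4% of all tested genes did so, 16.6% higher and 14.9% lower. The members' median log2 fold change was 0.11, beside 0.01 for all tested genes. Without TMM scaling (a correction for the makeup of each library), the median of all genes moved to 0.14, the calls over all genes moved from 987 higher and 844 lower to 1938 higher and 535 lower, and those among the members to 5 higher and 0 lower.

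**Figure D1:**
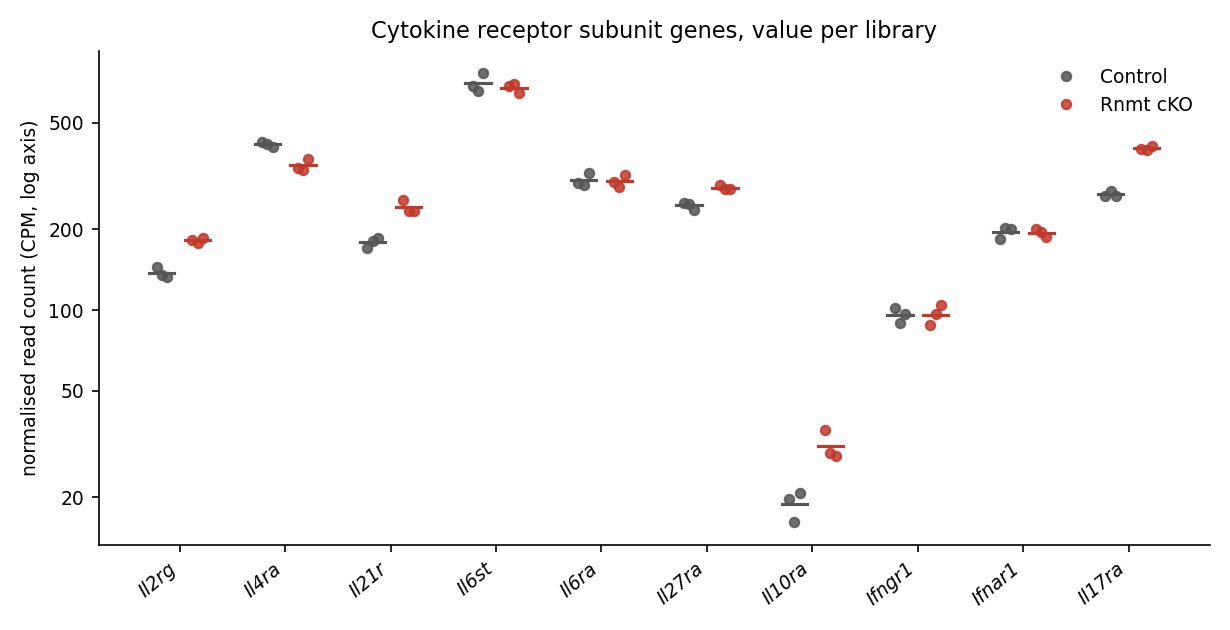
TMM-scaled CPM (log axis) of the 10 receptor subunit genes in each library, with points for libraries and lines for group means (n = 3 each). The Rnmt cKO points of Il17ra, Il10ra, Il21r, Il2rg and Il27ra lie above all control points, those of Il4ra lie below, and the other 4 genes overlap.

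Among the chains that signal through the common gamma chain, Il2rg and Il21r rose in Rnmt cKO and Il4ra fell. Il2rg (chromosome X, 101264378 to 101268255, mm10) encodes the common gamma chain itself, which serves the receptors for IL-2, IL-4, IL-7, IL-9, IL-15 and IL-21 and binds JAK3. Il2rg stood at 145, 135 and 132 CPM in the controls and 183, 178 and 186 CPM in Rnmt cKO. Every Rnmt cKO library was above every control, and the spread within each group was small beside the gap. Its mean went from 138 ± 6.50 to 182 ± 3.59 CPM (SD, n = 3 each), a log2 fold change of 0.41 (SE 0.042, adjusted p = 0.000127).

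Il21r (chromosome 7, 125603429 to 125633570) encodes the chain that pairs with the common gamma chain to bind IL-21, a cytokine of follicular helper T cells. Il21r stood at 171, 181 and 186 CPM in the controls and 258, 235 and 234 CPM in Rnmt cKO. The groups did not overlap, and the lowest Rnmt cKO library was well above the highest control. Its log2 fold change was 0.44 (SE 0.059, adjusted p = 9.78e-05), near that of Il2rg.

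Il4ra (chromosome 7, 125552120 to 125579474), the IL-4 binding chain that drives STAT6 and the Th2 fate, lies upstream of Il21r on the same strand. Il4ra stood at 423, 419 and 406 CPM in the controls and 340, 333 and 367 CPM in Rnmt cKO. All 3 Rnmt cKO libraries were below all controls, opposite in direction to its neighbour Il21r. The log2 fold change was -0.26 (SE 0.046, adjusted p = 0.0406). That call was fragile, since the adjusted p rose to 0.323 at most and passed the threshold in 6 of 16 alternative settings, while the change stayed between -0.32 and -0.14; leaving out control 1, control 2, control 3, Rnmt cKO 1 or Rnmt cKO 2 gave an adjusted p of 0.158, 0.189, 0.0918, 0.180 and 0.221.

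Of the family built around gp130, no member passed the threshold. Il6st (chromosome 13, 112464070 to 112510086) encodes gp130, the signalling chain shared by the receptors for IL-6, IL-11, IL-27, leukaemia inhibitory factor and oncostatin M. Il6st had the most reads of the members, at 688, 656 and 766 CPM in the controls and 685, 695 and 644 CPM in Rnmt cKO. The groups overlapped, and the difference of -0.06 on the log2 scale had a 95% interval from -0.26 to 0.15. Il6ra (chromosome 3, 89864059 to 89913196), which binds IL-6 and presents it to gp130, stood at 299, 294 and 324 CPM in the controls and 300, 289 and 318 CPM in Rnmt cKO. Its values ran over the same range in both groups, with a log2 difference of -0.02 (95% interval -0.18 to 0.15).

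Il27ra (chromosome 8, 84030294 to 84042589), the chain specific for IL-27, stood at 252, 250 and 237 CPM in the controls and 292, 283 and 283 CPM in Rnmt cKO. The groups did not overlap, with the higher values in all 3 Rnmt cKO libraries. The log2 fold change was 0.22 (SE 0.032), and its adjusted p of 0.0922 in edgeR's exact test missed the threshold. It passed in 3 of 16 alternative settings, among them without Rnmt cKO 3 (adjusted p = 0.0491).

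Il10ra (chromosome 9, 45253837 to 45269149) had the largest fold change and the lowest level of the members. It encodes the ligand binding chain for IL-10, a cytokine that restrains immune responses. Il10ra stood at 19.8, 16.2 and 20.8 CPM in the controls and 35.8, 29.2 and 28.5 CPM in Rnmt cKO. No values overlapped, but the SE was the widest of the members, from 162 to 346 counts per library. Its log2 fold change was 0.72 (SE 0.15, adjusted p = 3.66e-05).

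The interferon receptor chains belong to the same structural class as Il10ra and did not pass the threshold. Ifngr1 (chromosome 10, 19591949 to 19610229), the interferon gamma binding chain, stood at 102, 89.7 and 96.4 CPM in the controls and 88.0, 96.3 and 104 CPM in Rnmt cKO. Ifnar1 (chromosome 16, 91485238 to 91507441), one of the type I interferon receptor chains, stood at 184, 203 and 202 CPM in the controls and 201, 195 and 187 CPM in Rnmt cKO. The groups overlapped for both genes. The log2 differences were 0.01 for Ifngr1 (95% interval -0.24 to 0.24) and -0.01 for Ifnar1 (95% interval -0.16 to 0.14), and the sign of each depended on the setting, as it did for Il6st and Il6ra.

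Il17ra (chromosome 6, 120463247 to 120487559) encodes the chain shared by the receptors of the IL-17 family, which signals through adaptor proteins rather than JAKs. Il17ra stood at 266, 278 and 268 CPM in the controls and 401, 395 and 409 CPM in Rnmt cKO. The 3 libraries of each group lay close together and far from the other group. The mean went from 270 ± 6.53 to 402 ± 6.75 CPM (SD, n = 3 each), a log2 fold change of 0.57 (SE 0.024, adjusted p = 2.01e-08), with the smallest SE and adjusted p of the members.

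**Figure D2:**
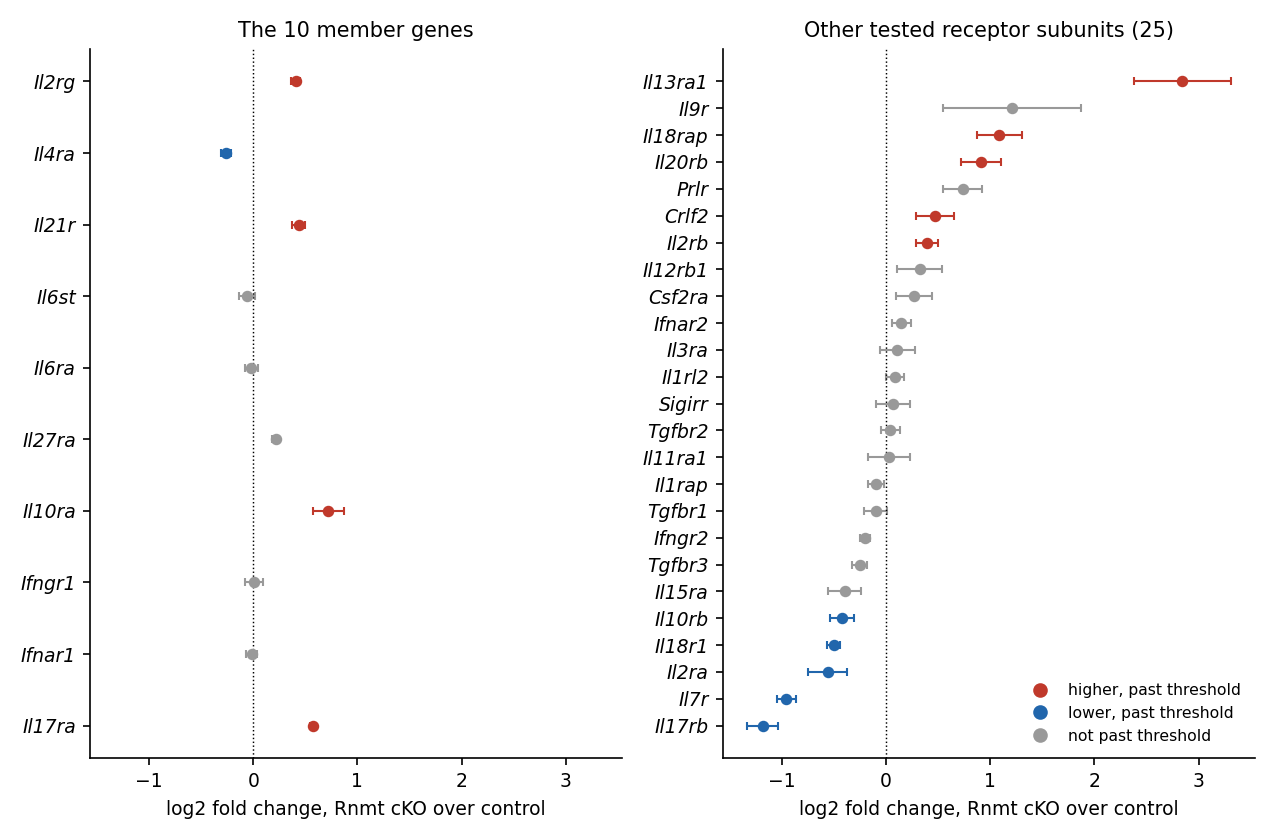
Log2 fold change of Rnmt cKO over control for the 10 members, left, and the 25 other receptor subunits that were tested, right, with bars for the SE from the per-library log2 CPM (n = 3 per group) and colour for the test result. The members run from -0.26 for Il4ra to 0.72 for Il10ra, and the other subunits from -1.18 for Il17rb to 2.84 for Il13ra1.

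The calls of Il17ra, Il10ra, Il21r and Il2rg passed the threshold in 16 of 16 alternative settings. Log2 ratios were also taken within the libraries with under 40% and over 46% of reads in no gene. They were 0.59 and 0.57 for Il17ra, 0.67 and 0.63 for Il10ra and 0.41 and 0.40 for Il21r. For Il2rg they were 0.41 and 0.45, and for Il4ra -0.20 and -0.27. The groups did not overlap for these genes, so their signs could not change. Rnmt cKO 3 was the only Rnmt cKO library in the first set, and control 3 the only control in the second. Il6ra and Ifngr1 changed sign in 1 set each. Counts over the 10 members summed to 2548, 2520 and 2638 CPM in the controls and 2784, 2730 and 2759 CPM in Rnmt cKO. The Rnmt cKO sums were higher in 3 of 3 libraries, by 189 CPM on average. The sum mixes changes in both directions. The mean of Il17ra went from 270 to 402 CPM, while Il4ra went from 416 to 347 CPM and Il6st from 703 to 675 CPM. A permutation test of the sums gave p = 0.10, and 3 against 3 libraries can go no lower. Because the members were chosen with earlier results known, that p cannot decide whether they rose as a set.

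Levels between genes were compared as RPKM, CPM per kilobase of exon. In the controls Il27ra had the highest level of the members (92.4 ± 2.98 RPKM), followed by Il2rg (82.3 ± 3.90), Il4ra (79.1 ± 1.71), Il21r (70.5 ± 3.10), Il6st (64.1 ± 5.18), Ifnar1 (50.2 ± 2.62), Ifngr1 (45.4 ± 2.79), Il6ra (35.4 ± 1.89), Il17ra (34.9 ± 0.843) and Il10ra (5.40 ± 0.690; SD, n = 3 throughout). Neighbours with overlapping values were Il2rg and Il4ra, Il21r and Il6st, Ifnar1 and Ifngr1, and Il6ra and Il17ra. The median of the 12296 tested genes with a length was 9.08 RPKM, so Il10ra lay at the 36.6th percentile and the other members between the 86.2nd and the 95.9th.

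In Rnmt cKO the order of levels moved at several places. Il2rg (109.2 ± 2.15 RPKM) and Il27ra (107.4 ± 2.08) came first with overlapping values, and Il21r (95.4 ± 5.40) now stood above Il4ra (65.9 ± 3.35) without overlap. Il17ra (51.8 ± 0.871) reached the level of Ifnar1 (49.8 ± 1.81), and Il10ra (8.91 ± 1.16) stayed last. Il2rg shares 728 of its 1670 exonic bases with Gm20489 on the same strand, and reads on both genes are counted for neither, so its RPKM is a low estimate. Without the shared bases Il2rg came first in both groups, at 146.0 RPKM in the controls and 193.5 in Rnmt cKO. With the longest transcript as the length, Il6st stood at 81.0 RPKM in the controls and overlapped Il2rg and Il4ra.

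**Figure D3:**
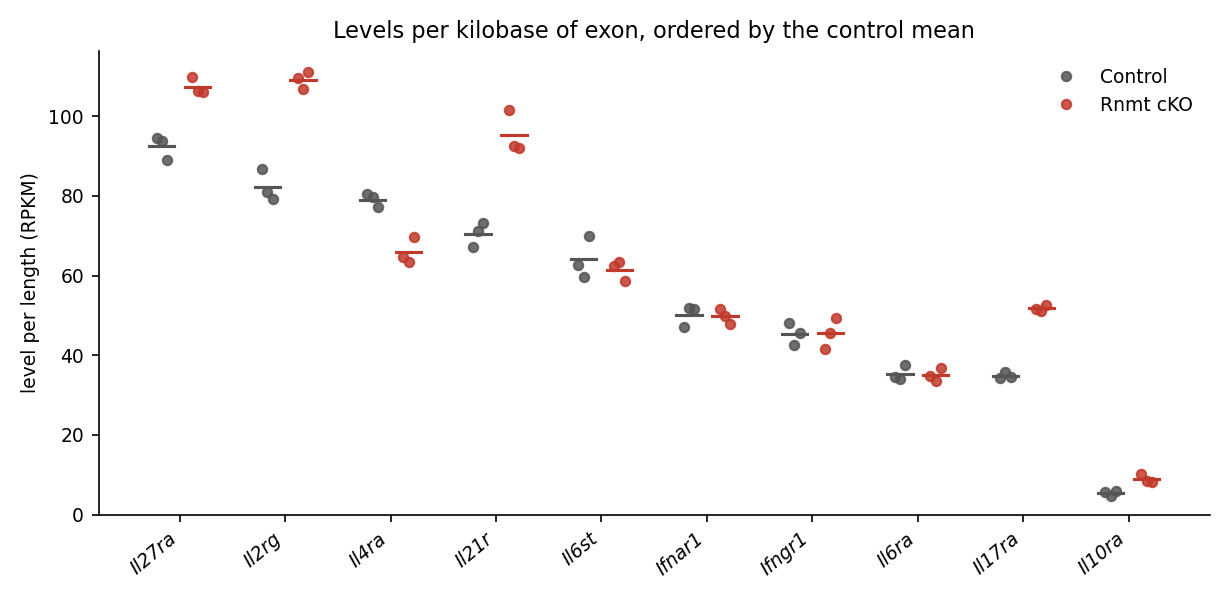
RPKM of each member per library, ordered by the control mean, with lines for group means (n = 3 each). Il2rg, Il21r and Il17ra change places with their neighbours in Rnmt cKO, and Il10ra is lowest in both groups.

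A receptor needs both of its chains, so the ratio of each binding chain to its partner was taken within each library, which does not depend on scaling. The log2 ratio of Il4ra to Il2rg was 1.55, 1.63 and 1.61 in the controls and 0.89, 0.90 and 0.98 in Rnmt cKO, a mean difference of -0.67 (95% interval -0.78 to -0.56). Il21r to Il2rg had a mean of 0.38 in the controls and 0.41 in Rnmt cKO, with overlapping values and a difference of 0.03 (95% interval -0.22 to 0.28). All 3 Rnmt cKO ratios of Il4ra were below the controls, while those of Il21r lay in the same range.

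Il7r encodes the IL-7 binding chain that naïve T cells need for survival, and it too pairs with the common gamma chain. The log2 ratio of Il7r to Il2rg was 1.39, 1.51 and 1.35 in the controls and 0.15, 0.10 and -0.09 in Rnmt cKO, a difference of -1.36 (95% interval -1.61 to -1.12). Il2rb to Il2rg, the pair of the intermediate affinity IL-2 receptor, differed by -0.02 (95% interval -0.31 to 0.26).

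Il10ra pairs with Il10rb in the IL-10 receptor. Their log2 ratio was -0.64, -0.68 and -0.22 in the controls and 0.93, 0.53 and 0.42 in Rnmt cKO, a difference of 1.14 (95% interval 0.54 to 1.73). These are ratios of counts of genes of unlike length, so that 0 is no point of balance. Per length, Il10ra stood at 10.2, 8.35 and 8.15 RPKM and Il10rb at 10.2, 10.9 and 11.5 RPKM in Rnmt cKO, against 4.62 to 5.94 RPKM and 13.1 to 16.7 RPKM in the controls. Smaller differences without overlap were found for Il27ra to Il6st (0.27), Ifngr1 to Ifngr2 (0.20, 95% interval -0.03 to 0.43) and Ifnar1 to Ifnar2 (-0.17), while Il6ra to Il6st overlapped (0.04). Of the 9 pairs tested, 6 did not overlap between groups, where 31.4% of single tested genes did not. The share for ratios of other gene pairs was not computed. Several pairs share Il2rg or Il6st, so they are not independent. Each of the 6 had an exact permutation p of 0.10, the smallest possible, and 0.15 after Benjamini-Hochberg adjustment over the pairs. Il17rc, the partner of Il17ra, had a count of 0 in 5 of 6 libraries and 2 in control 1, so no ratio was formed.

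**Figure D4:**
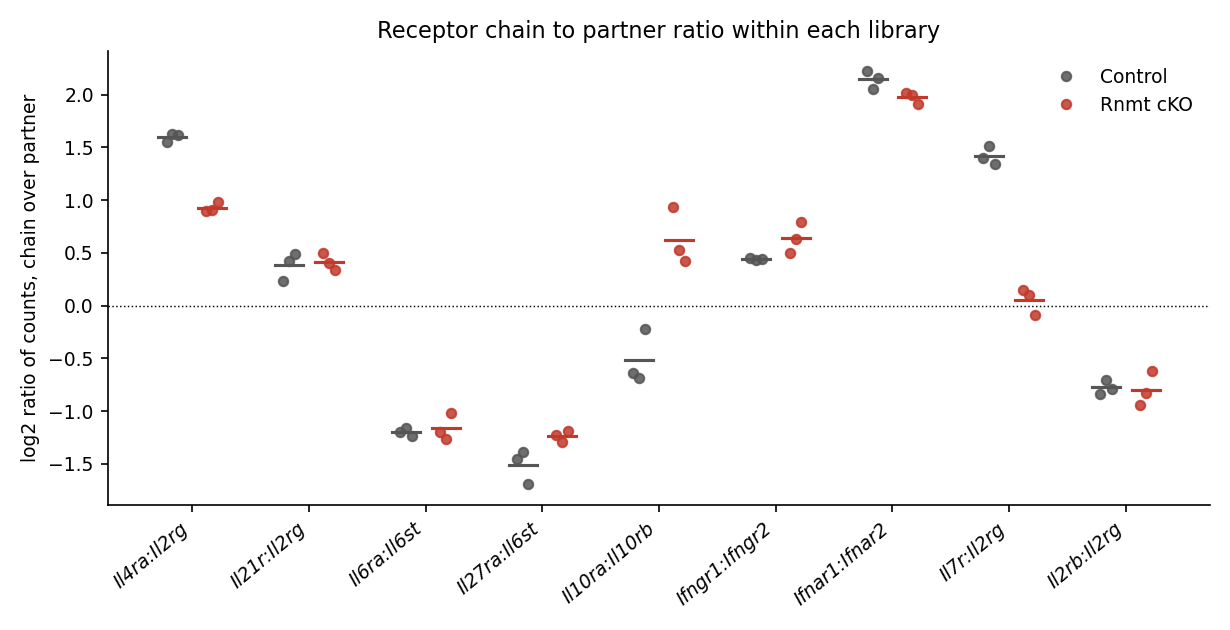
Log2 ratio of counts of a binding chain to its partner chain in each library, with lines for group means (n = 3 each). Il4ra:Il2rg and Il7r:Il2rg lie lower in Rnmt cKO, Il10ra:Il10rb lies higher, and Il21r:Il2rg, Il6ra:Il6st and Il2rb:Il2rg overlap.

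Among 49 other cytokine receptor subunit genes, 25 were tested, with a median log2 fold change of 0.06. Of the 25, 5 rose, 5 fell and 15 did not pass, where 8.0% of all tested genes rose and 6.84% fell. The count tables held 3 of the 49 at 0 in every library. Il7r had the most reads of those called, at 381, 386 and 336 CPM in the controls and 203, 191 and 174 CPM in Rnmt cKO. Its log2 fold change was -0.96 (SE 0.089, adjusted p = 2.44e-17), and the call passed in 16 of 16 alternative settings. Within the libraries with under 40% and over 46% of reads in no gene, the log2 ratio of Il7r was -1.13 and -0.77. The chains of the IL-2 receptor went in different directions, with Il2ra (CD25) at -0.56 (adjusted p = 0.00314) and Il2rb at 0.39 (adjusted p = 0.00491). Il18r1, the IL-18 binding chain, fell by 0.50 on the log2 scale (adjusted p = 2.15e-05), while its partner Il18rap rose by 1.09 from 1.06 ± 0.250 to 2.27 ± 0.380 CPM (SD, n = 3). Without control 3 the adjusted p was 0.0557 for Il2ra and 0.0571 for Il2rb, while Il18rap passed in 5 of 14 alternative settings. It was lost with the quasi-likelihood test (adjusted p = 0.0591), DESeq2 (0.174), no filter (0.0665), unstranded counts (0.137) and a replicate block (0.136), and the adjusted p was 0.182, 0.0946, 0.138 and 0.109 without control 2, control 3, Rnmt cKO 1 and Rnmt cKO 2.

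Of the members' partners, Il10rb fell by 0.42 on the log2 scale (27.0 ± 3.42 to 20.1 ± 1.26 CPM, adjusted p = 0.0217), a call that held in 8 of 16 alternative settings and was lost without control 1 (adjusted p = 0.196), control 2 (0.0748), Rnmt cKO 1 (0.130) or Rnmt cKO 2 (0.0864). Ifngr2 (log2 fold change -0.20, adjusted p = 0.169) and Ifnar2 (0.15, adjusted p = 0.441) did not pass. Crlf2, the receptor chain for thymic stromal lymphopoietin, rose by 0.47 (22.9 ± 3.49 to 31.6 ± 4.88 CPM). Il20rb (0.91), Il17rb (-1.18) and Il13ra1 (2.84), the last a partner of Il4ra outside T cells, passed the threshold at means under 4 CPM in both groups, with 1 to 4 counts of Il13ra1 per control library. The log2 fold change of Il13ra1 was 3.82 without control 1 and 1.73 with unstranded counts, and that of Il17rb was -0.31 with unstranded counts (adjusted p = 0.504). The calls of Crlf2, Il20rb and Il17rb passed in 8 of 16, 7 of 15 and 10 of 15 alternative settings. Leaving out control 1 or 3 raised the adjusted p of Crlf2 to 0.0620 or 0.189, and leaving out Rnmt cKO 2 or 3 raised it to 0.0648 or 0.0988. That of Il20rb was 0.0597 to 0.134 without each library other than Rnmt cKO 3, and that of Il17rb was 0.0586 without control 2 and 0.0606 without Rnmt cKO 2.

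Transcripts of the cytokines that bind these receptors were scarce. Of 18 ligand genes, 2 were tested and both rose, 5 were at 0 in every library (Il4, Il9, Il13, Il17a and Ifnb1), and the others were under the filter. Osm, oncostatin M, stood at 21.4, 19.0 and 20.3 CPM in the controls and 34.8, 32.6 and 36.8 CPM in Rnmt cKO, a log2 fold change of 0.78 (SE 0.071, adjusted p = 1.07e-08). Lif rose from 4, 4 and 4 counts to 31, 45 and 33 counts, with a log2 fold change of 2.91 (adjusted p = 3.71e-11).

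Downstream of the receptors, 6 of 11 JAK and STAT genes rose and 1 fell, where 8.0% of all tested genes rose and 6.84% fell. The median log2 fold change of the 11 genes was 0.34. Jak3, the kinase held by the common gamma chain, stood at 115, 118 and 115 CPM in the controls and 221, 218 and 190 CPM in Rnmt cKO. That is a log2 fold change of 0.85 (SE 0.072, adjusted p = 3.55e-16), beside 0.41 for Il2rg. Stat5a, which acts behind the IL-2 and IL-7 receptors, rose by 0.52 (adjusted p = 2.74e-06), and Stat2, which acts behind the type I interferon receptor, by 0.41 (adjusted p = 0.00346, and 0.0589 without Rnmt cKO 1). Jak2 rose by 0.40 (adjusted p = 0.000824) and Stat3 by 0.34 (adjusted p = 0.00960). Stat6, the factor behind Il4ra, was the one that fell, by 0.29 on the log2 scale (adjusted p = 0.0302). The calls of Jak2, Stat3 and Stat6 were not checked in the alternative settings. Il4ra also fell, with a fragile call, and a link to Stat6 was not tested.

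Of 16 negative regulators, 3 rose and 0 fell in edgeR's exact test, and the median log2 fold change was 0.10. At an unadjusted p under 0.05, 4 were higher and 0 lower. Over all 12336 tested genes, 8.0% rose, 6.84% fell and 3087 had an unadjusted p under 0.05 in either direction. Socs3, an inhibitor that binds gp130 and is itself induced by STAT3, stood at 164, 163 and 150 CPM in the controls and 470, 501 and 537 CPM in Rnmt cKO. The groups were far apart, with a log2 fold change of 1.66 (SE 0.069, adjusted p = 6.95e-56). Socs1, an inhibitor of JAK kinases, rose from 22.9 ± 0.211 to 43.2 ± 4.45 CPM (log2 fold change 0.91, adjusted p = 1.16e-11), and the phosphatase gene Ptpn1 rose by 0.29 (adjusted p = 0.0205, and 0.231, 0.0586, 0.0883 and 0.0732 without control 2, control 3, Rnmt cKO 1 and Rnmt cKO 2). Receptor shedding and IL-17 receptor adaptor genes gave 0 calls of 5 in edgeR's exact test and 0 at an unadjusted p under 0.05, the lowest being 0.0759 for Adam10.

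Of 13 genes known to respond to cytokines, 8 rose and 0 fell in edgeR's exact test, and the median log2 fold change was 0.38. At an unadjusted p under 0.05, 8 were higher and 0 lower. Over all 12336 tested genes, 8.0% rose, 6.84% fell and 3087 had an unadjusted p under 0.05 in either direction. Bcl3, a regulator of NF-κB, went from 29.2 ± 3.98 to 76.8 ± 2.79 CPM (log2 fold change 1.40, adjusted p = 1.26e-29). Pim1, a kinase gene induced by STAT factors, went from 87.7 ± 9.30 to 217 ± 13.1 CPM (1.30, adjusted p = 3.64e-31). Bcl2, a survival gene kept up by IL-7, rose from 294 ± 7.01 to 455 ± 45.0 CPM (0.63, adjusted p = 7.32e-08), while the IL-7 receptor chain Il7r fell.

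**Figure D5:**
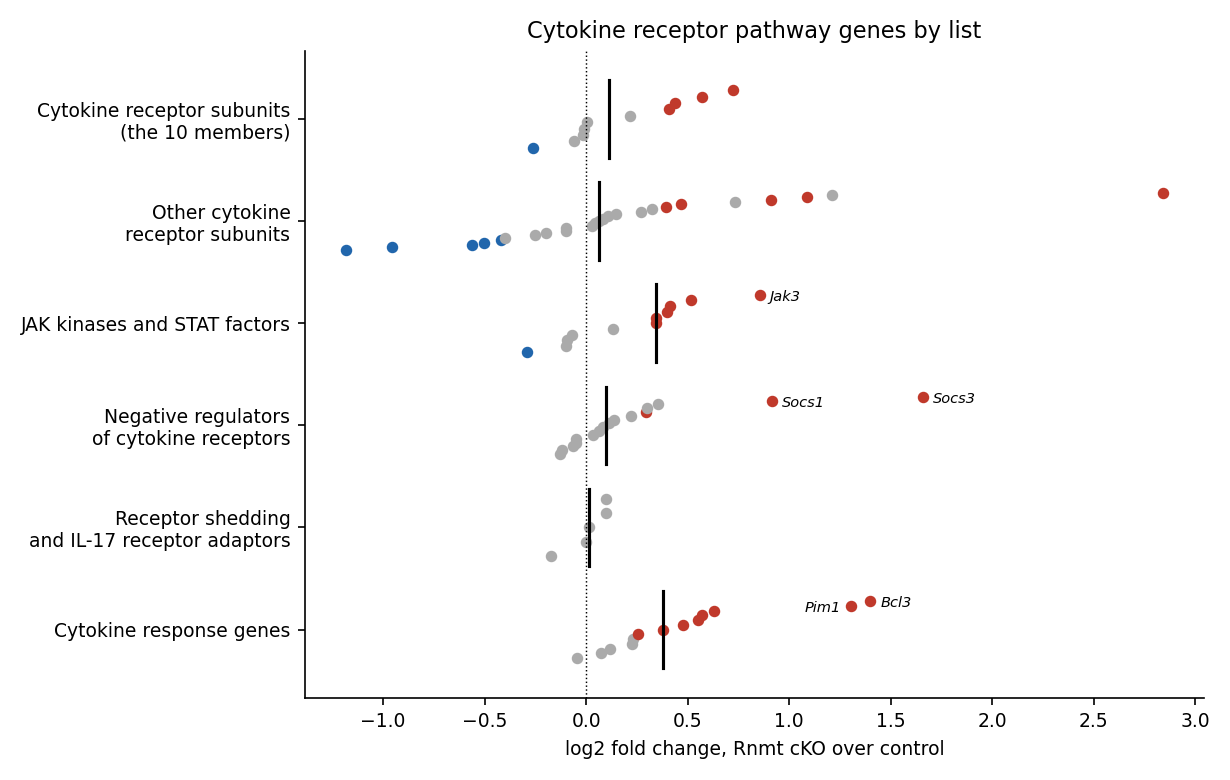
Log2 fold change of Rnmt cKO over control for each tested gene in 6 lists of the cytokine receptor pathway, the ligands left out (points: red higher, blue lower, grey not past the threshold; vertical lines: list medians). The medians are 0.11 for the members, 0.34 for JAK and STAT genes and 0.38 for response genes, and Il13ra1 at 2.84 and Socs3 at 1.66 lie furthest from the medians of their lists (0.06 and 0.10).

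Markers of other cell states moved between the same groups, where 8.0% of all tested genes rose and 6.84% fell. All 6 proliferation markers rose, from a summed 34.0 to 43.1 CPM in the controls to 249.9 to 287.4 CPM in Rnmt cKO. Of 7 activation markers 6 rose, from 233.1 to 247.8 CPM to 333.5 to 391.5 CPM. Of 4 tested regulatory T cell markers 1 rose and 1 fell, with sums of 153.4 to 179.5 CPM in the controls and 143.0 to 160.1 CPM in Rnmt cKO. Foxp3 fell from 25.4 ± 2.30 to 13.5 ± 1.22 CPM, and Gpr83 rose from 42.0 ± 2.11 to 53.3 ± 3.93 CPM. Ikzf2 (log2 fold change -0.32) and Ctla4 (-0.13) did not pass the threshold. Cells with Foxp3 carry much CD25, and a link to the fall of Il2ra given above was not tested.

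Memory and effector T cell markers summed to 143.0 to 149.6 CPM in the controls and 136.3 to 151.6 in Rnmt cKO, with 1 of 6 tested genes higher and 1 lower. The sum hides opposite changes of these genes. Cd44, whose protein was used in the sort, fell from a mean of 42.6 to 20.5 CPM (log2 fold change -1.05, adjusted p = 1.32e-08 in edgeR's exact test). Id2 rose from 25.4 to 47.6 CPM (0.91, adjusted p = 4.53e-13). Itgb1, with the most reads of the list, stood at 59.6 CPM in both groups. Of 10 B cell markers 5 rose and 1 fell, the sum being 328.1 to 392.2 CPM in the controls and 240.4 to 296.4 in Rnmt cKO. Most of that sum was Ighm, the gene that fell (283.6 to 346.5 CPM in the controls and 180.7 to 214.6 in Rnmt cKO), and the other 9 summed to 44.5 to 53.5 CPM in the controls and 59.7 to 96.1 in Rnmt cKO. Of the defining B cell markers, Ms4a1 lay at 7.99 to 17.9 CPM over all libraries. Of 6 tested myeloid markers 3 rose, with sums of 26.3 to 32.7 and 34.7 to 54.9 CPM, or 6.99 to 9.05 and 15.9 to 37.8 CPM without Cst3, which holds most of the control sum. Those that rose were S100a9 (0.118 to 0.221 CPM in the controls and 2.54 to 8.44 in Rnmt cKO), S100a8 (0 to 0.399 and 1.80 to 6.63) and Lyz2 (2.00 to 3.17 and 5.18 to 13.8), while Cd14 was at 0 in 5 of 6 libraries. Both CD8 markers fell, from 21.7 to 23.3 CPM to 13.5 to 17.3 CPM, both tested erythroid markers fell, from 4.09 to 6.23 CPM to 0.986 to 1.10 CPM, and no NK cell marker passed the filter, with a summed 1.27 to 3.71 CPM over all libraries. The part of these markers in the differences of the receptor genes was not tested, and in bulk RNA fewer cells of a type and less RNA per cell cannot be told apart.

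Sequence features that the choice of genes did not use were compared with all tested genes. In the 300 bases of promoter (250 before the start and 50 after), searched on both strands, the STAT motif TTCNNNGAA was found in 1 of the 7 promoters, that of Ifnar1, and in 6.91% of the 10803 promoters. The interferon-stimulated response element was found in 0 of 7 and 3.22%, the ETS motif CCGGAA in 3 of 7 and 29.7%, the GC box GGGCGG in 5 of 7 and 62.8%, and TATAAA in 0 of 7 and 6.43%. Of the genes that rose, Il2rg had an ETS motif and Il21r a GC box, while Il10ra and Il17ra had no promoter entry. A link of these motifs to the changes was not tested. A match is a run of letters and not a measured site.

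The transcripts of the members differed widely in length. The longest coding transcript ran from 1670 bases for Il2rg to 8678 for Il6st, with a median of 3703.5 beside 3124 for the 10391 tested genes with one. The 3′ untranslated region ran from 474 bases for Il2rg to 7102 for Il6ra. The pentamer ATTTA, a part of AU-rich decay elements, occurred 9 times in that region of Il6st, 6 times in that of Il17ra and 0 times in those of Il2rg, Il4ra, Il27ra and Ifngr1. The genes that rose included both short (Il2rg) and long (Il17ra) transcripts, and a link of length to the changes was not tested. Antisense reads were 0.0369% to 1.03% of the reads of both strands in the controls for every member except Il6ra (2.77%), which shares 242 exonic bases with Gm42809 on the opposite strand.

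The genes whose pattern over the 6 libraries was most like that of Il10ra, among 8460 tested genes with a mean of at least 10 CPM, were Faim (Pearson r = 0.990 of log2 CPM), Lcp2 (0.989), Wdr75 (0.989), D2hgdh (0.985) and Agrn (0.984). The points are 6 libraries that fall into 2 groups, and the values are a description only. Faim and Agrn passed the threshold in the same direction as Il10ra, while Lcp2, Wdr75 and D2hgdh did not pass.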

How the data were processed

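Naïve CD4 T cell RNA was sequenced in 3 control and 3 Rnmt cKO samples, grouped by the genotype in the labels. The authors aligned paired-end reads to mm10 with STAR 2.5.2b (per the labels) using the basic set of GENCODE vM12, and deposited, for every gene, the raw count of uniquely mapped fragments. The third count column of each table, the sense strand, was used, because it matched the signal columns of the deposited edgeR table, up to 1 factor a library, for 100% of 11221 genes within 1%. Those normalised signal columns of the authors were used for that check only, and the fold change, log2 and p-value columns that the authors deposited were not used. Lines for reads in no gene, on several genes or unmapped were kept out of library sizes.

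Genes over 1 CPM in at least 3 samples were scaled with TMM and compared with the exact test of edgeR 4.0.16 (R 4.3.3), with Benjamini-Hochberg adjustment over all 12336 tested genes. SEs and 95% intervals came from log2 CPM of each sample (prior count 2, 4 residual degrees of freedom). Single values were compared with exact two-sided permutation tests in scipy 1.17.1. Exon lengths and coordinates came from GENCODE vM21 on the same build, which held 46488 of the 46983 gene identifiers. Replicate numbers did not pair the samples. No 2 libraries of the same group agreed within sampling noise (chi-square of 3.79 or more per degree of freedom), so no library repeats another of its group. That check cannot show that the libraries came from separate animals. They count as replicates because each group is described as n = 3 mice. The code was tested on simulated data. The 16 alternative settings were the quasi-likelihood test, DESeq2 1.42.0, other scalings, filters and strand, each library left out, a replicate block and a covariate for the share of reads in no gene.

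The members, gene lists and pairs were chosen with earlier results of these data known. Named genes were the members, Rnmt, other receptor subunits past the threshold, the members' partners, up to 3 genes past the threshold with the largest change in each other list, and the 5 genes most like the member with the largest change. Further genes (ligands at 0, Jak2, Stat3, Stat6, Adam10, markers and overlapping genes) were named after their values were seen. A few genes of the lists are not reported here.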

Additional observations from a re-analysis of the deposited data

How the results depend on the processing

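Il17ra, Il10ra, Il21r and Il2rg stayed past the threshold and in the same direction under all 16 alternatives, and the number of members called higher was 4 or 5 throughout. Results that moved are given here, and the cause was not tested. The number of members called lower, 1 with the exact test, was 0 with the quasi-likelihood test, without TMM, without a filter, with unstranded counts and with the replicate block, and ran from 0 to 1 on leaving out each library. The other subunits called higher, 5 at first, were 2 with the quasi-likelihood test, DESeq2 and the filter of more than 10 CPM, 3 with more than 1 CPM in all 6 libraries or unstranded counts, and 1 to 4 without each library; those called lower, 5 at first, were 3 with DESeq2 or without TMM, and 3 to 6 without each library. Without TMM the members' median log2 fold change was 0.24 (0.10 to 0.14 without each library) and their summed difference 417.6 CPM (164.8 to 223.5 without each library). Over all genes, 1938 were higher and 535 lower without TMM, 1696 and 1466 with the no-gene share covariate, and 643 to 1221 higher and 547 to 1285 lower without each library. Among the settings that leave out a library, the fewest calls came without Rnmt cKO 2 (643 higher, 547 lower) and the most without Rnmt cKO 3 (1221 higher, 1285 lower), with 747 and 559 without control 1 and 656 and 560 without control 2.

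The correlations of same-numbered libraries were -0.21, -0.02 and -0.35, so the numbers do not pair the samples. With the replicate block 431 genes were higher and 276 lower, and 1 of the other subunits was higher and 2 lower. Members that did not pass the threshold changed sign as follows. Without TMM, the log2 fold changes were 0.111 for Ifnar1, 0.105 for Il6ra and 0.0662 for Il6st. For Ifngr1 they were -0.00827 with DESeq2, -0.00798 with RLE factors and -0.00331 with the filter of more than 10 CPM. Without each library, they ran from -0.0567 to 0.0107 for Ifnar1, from -0.0713 to 0.0632 for Ifngr1, from -0.0735 to 0.0273 for Il6ra and from -0.108 to 0.00628 for Il6st. The pair differences ran from -0.0451 to 0.0822 for Il21r to Il2rg, from -0.111 to 0.0510 for Il2rb to Il2rg and from -0.0312 to 0.0947 for Il6ra to Il6st. The within-set values and the Il2rg level without shared bases were added after seeing the data. Depth limits the genes under about 4 CPM.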
